A study of Homo sapiens with 8 samples.

Results

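Mitochondrial carriers are a family of transport proteins, most of them in the inner mitochondrial membrane. They are encoded by genes with SLC25A symbols, together with the uncoupling proteins UCP1, UCP2 and UCP3. The members taken here were all genes on the array with such a symbol, read from probe sets that name a single gene, with the brightest probe set kept for each. There were 31 of them among 11963 genes, in 12 groups by the substrate carried, and 20 other carriers that were listed by substrate were not analysed here.

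The inner membrane is closed to most metabolites, so each carrier sets what its substrate can do on the far side. ADP/ATP and phosphate carriers feed ATP synthase, the oxoglutarate and aspartate-glutamate carriers pass reducing equivalents from the cytosol inwards, and other carriers bring in acylcarnitines, amino acids, cofactors or iron. Uncoupling proteins are relatives of these carriers; UCP1 lets protons leak back across the membrane in brown fat. PGC1α, encoded by PPARGC1A, is a coactivator that raises the transcription of many nuclear genes for mitochondrial proteins, and its loss is the perturbation in this study.

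The cells were A375P, a human melanoma line, carrying a stably integrated lentiviral hairpin and selected with puromycin for 48 h, with RNA taken 48 h after selection. The control arm held 2 arrays with shGFP and 2 with shScr, and the knockdown arm 2 arrays each with hairpin 65 and hairpin 66 against PGC1α. All 8 arrays thus come from transduced, selected cells, and no untransduced cells were compared. Where the text says that a gene rose, fell or was called, it passed limma's test with a Benjamini-Hochberg adjusted p under 0.05 over all 11963 genes; signals are RMA values on a linear scale, and each fold is the difference of log2 means turned back to a ratio. RNA of whole cultures was measured, so less transcript in every cell and fewer cells with the transcript cannot be told apart.

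The target gene followed the labels. PPARGC1A signals went from 556 ± 11.7 with control hairpins to 125 ± 13.9 with PGC1α hairpins (SD, n = 4 in each arm), without overlap (exact two-sided permutation p = 0.0286, the smallest that 4 against 4 arrays allow). Median signals per array lay between 137 and 142. Of 7 measured melanocyte markers 5 lay above the median gene, among them MITF, SOX10, S100B and TYR, whereas MLANA and TYRP1 lay below it. Their summed signal was 18730 to 20240 in the control arm and 14730 to 15960 in the knockdown arm, and 4 were called lower and 1 higher; their part in the results was not tested. All 5 epithelial and all 4 measured blood markers lay below the median gene, with none called; the summed signals were 114 to 132 and 186 to 206 in the control arm and 110 to 125 and 186 to 202 in the knockdown arm. Of 5 fibroblast markers, LUM and COL1A1 lay above the median gene, the summed signal was 806 to 1304 in the control and 903 to 1047 in the knockdown arm, and PDGFRB was called higher. The 3′ over 5′ difference of ACTB, a measure of RNA integrity, was 0.35 higher on the log2 scale in the knockdown arm with no overlap (exact permutation p = 0.0286), while that of GAPDH differed by 0.01 (exact permutation p = 0.571).

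Promoter sequence is shown first for the carriers with the largest changes, since members that move together raise the question of what their promoters share. RefSeq promoters of GRCh38.p14 were matched for 27 of the 31 carriers, at 32 transcription starts; SLC25A16, SLC25A30, SLC25A32 and SLC25A37 had no entry. The 250 bases before the start are given 5′ to 3′ for the carriers with the largest declines, SLC25A4 (chr4:185143016-185143265, plus strand) and SLC25A11 (chr17:4940047-4940296, minus strand). UCP2, the carrier with the largest rise, has 2 starts in the table, and the first is shown (chr11:73983203-73983452, minus strand). Capitals mark matches to the motifs named after the sequences.
SLC25A4: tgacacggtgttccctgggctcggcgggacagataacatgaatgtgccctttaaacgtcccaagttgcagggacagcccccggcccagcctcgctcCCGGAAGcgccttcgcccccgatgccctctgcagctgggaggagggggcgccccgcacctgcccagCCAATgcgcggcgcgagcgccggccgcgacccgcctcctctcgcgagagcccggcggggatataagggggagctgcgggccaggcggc
SLC25A11: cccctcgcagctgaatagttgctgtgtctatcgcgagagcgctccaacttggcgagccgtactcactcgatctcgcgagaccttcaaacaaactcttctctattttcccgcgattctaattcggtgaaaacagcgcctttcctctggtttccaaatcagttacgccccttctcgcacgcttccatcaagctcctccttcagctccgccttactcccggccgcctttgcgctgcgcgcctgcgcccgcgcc
UCP2: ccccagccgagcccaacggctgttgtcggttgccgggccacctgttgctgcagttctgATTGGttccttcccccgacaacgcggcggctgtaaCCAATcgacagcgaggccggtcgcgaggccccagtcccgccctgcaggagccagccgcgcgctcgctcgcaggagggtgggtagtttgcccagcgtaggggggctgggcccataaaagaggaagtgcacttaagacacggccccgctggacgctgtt

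Matches were sought on both strands for the full element of the estrogen-related receptors (TCAAGGTCA) and its core (AAGGTCA, which the full element contains), the core of NRF1 sites (CGCATGCG), a GABP and ETS-type site (CCGGAAG), the E-box CACGTG and the CCAAT box (CCAAT). In SLC25A4 the GABP-type match began 154 bases and the CCAAT box 88 bases before the start, UCP2 had CCAAT boxes at 192 and 157 bases, and the SLC25A11 window held none of these letters. Carriers are counted by start, and then by gene for the calls. CCAAT was in 13 of the 32 carrier windows and in 32.01% of all 35116 in the table; by gene these were 13 carriers, 5 of 10 that fell, 3 of 3 that rose and 5 of 14 that were not called. CCGGAAG was in 8 of the 32 windows and 8.52% of all; by gene these were 3 carriers that fell (SLC25A4, SLC25A20 and SLC25A22) and 5 not called. CACGTG was in 5 of the 32 and 6.34% of all, those of SLC25A36, which rose, and of 4 carriers not called. Neither the estrogen-related receptor element (0.32% of all promoters), nor its core (3.44%), nor the NRF1 core (1.73%) was found in the window of any carrier; these letters are absent from these windows, which says nothing of sites elsewhere.

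Of the 31 carriers, 10 fell, 4 rose and 17 were not called with the PGC1α hairpins. Over all genes 10.7% fell and 11.6% rose, 22.2% in all. The changes were small: 3 carriers fell and 2 rose by more than 1.25-fold, and log2 changes ran from -0.47 for the ADP/ATP carrier SLC25A4 to 0.81 for UCP2. Of the 3 that fell so far, SLC25A23 had low mean signals, 36.3 in the control and 28.9 in the knockdown arm. The median log2 change of the carriers was -0.12, or -7.81%, against -0.0045 over all genes, and 24 of the 31 changes were negative against 6105 of 11963. Signals of the 2 arms did not overlap for 11 carriers that were lower and 4 that were higher, where the background was 13.6% and 13.9%. Brighter genes were called more often on this array: among the 22 carriers above the median gene signal 8 fell and 4 rose, beside 16.3% and 17.3% of all genes above it.

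The number of calls depended on how the arrays were counted and modelled. With the 2 arrays of each hairpin averaged, SLC25A4 fell and SLC25A37 rose, 1 carrier each way, beside 3.01% and 4.33% of all genes. The same counts of 1 and 1 came with the ACTB difference as a covariate (2.01% and 2.41% of all genes). That difference did not overlap between the arms, so its part and that of the hairpins cannot be told apart. The carrier median log2 change was -0.12 with the covariate and without it. The count of carriers that fell was 6 without shGFP replicate 2 (8.34% of all genes) and 6 without hairpin 66 replicate 2 (8.79%). The count that rose was 2 without shScr replicate 1, either hairpin 65 array or hairpin 66 replicate 2 (9.35% to 10.9% of all genes). SLC25A3, SLC25A4, SLC25A5, SLC25A11, SLC25A12, SLC25A37 and UCP2, 7 carriers in all, kept their call whichever single array was left out; the other 7 calls are marked where they are described. Of the 7 kept calls, 4 ended when a whole hairpin was left out: SLC25A3 (adjusted p = 0.0582), SLC25A11 (0.0639) and SLC25A12 (0.0989) without hairpin 66, and UCP2 (0.0589) without hairpin 65. With hairpin as a random block, at an estimated correlation of 0.241 between arrays of a hairpin, SLC25A1 (adjusted p = 0.0680), SLC25A20 (0.05002), SLC25A22 (0.0607), SLC25A23 (0.0641), SLC25A36 (0.0549) and SLC25A40 (0.0692) were no longer called.

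**Figure D1:**
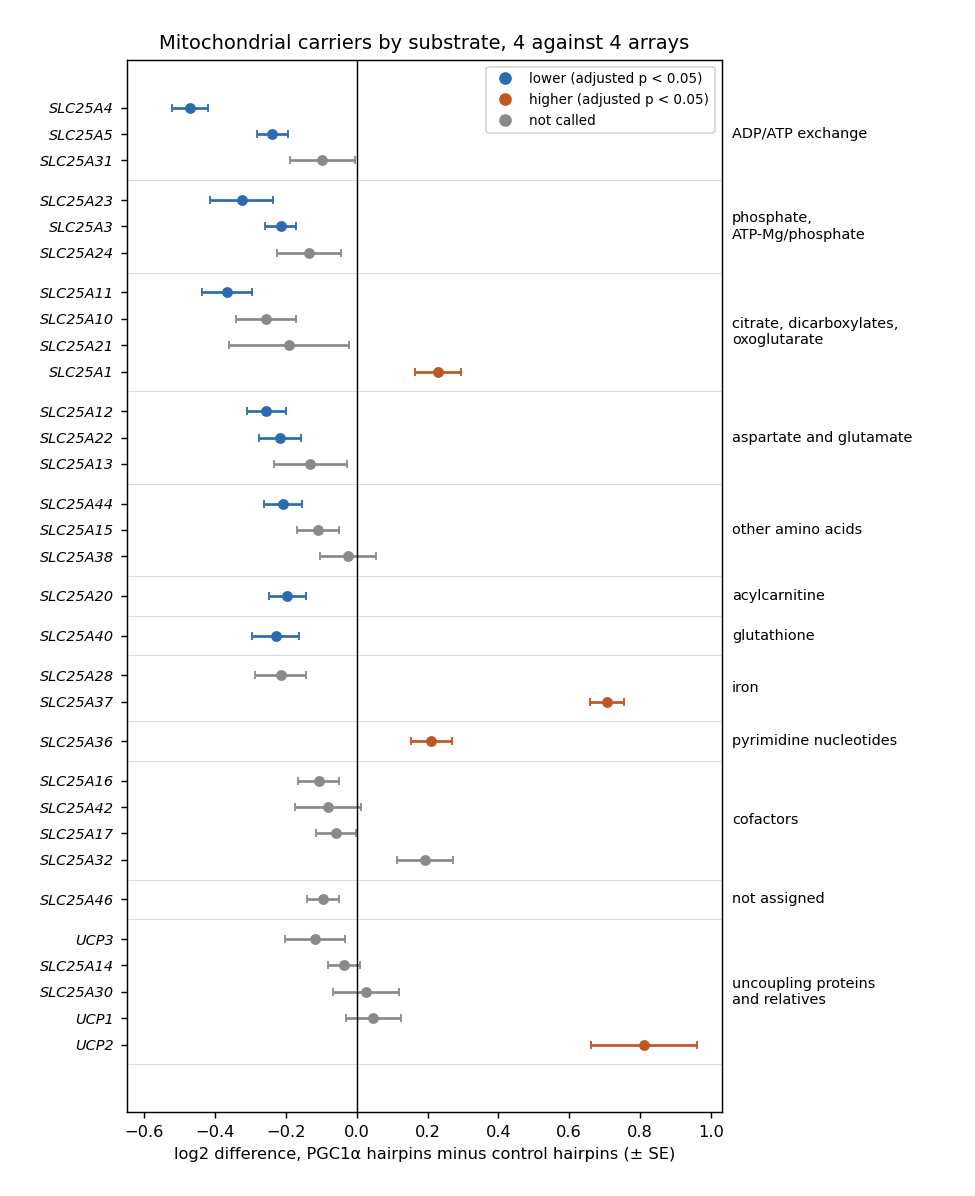
Log2 difference of each of the 31 carriers between the 4 arrays with PGC1α hairpins and the 4 with control hairpins (points, with SE as bars), grouped by substrate; blue marks carriers that fell, orange those that rose and grey those not called. Left of zero lie 24 of the 31 carriers, called or not. Among them are all carriers of ADP/ATP, phosphate, aspartate, glutamate, other amino acids, acylcarnitine and glutathione. UCP2 and SLC25A37 lie farthest to the right.

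Of the carriers of ADP/ATP 2 of 3 fell, and of those of phosphate and ATP-Mg/phosphate 2 of 3, beside 10.7% of all genes. The substrate groups are small and were not tested as groups. SLC25A4, the ADP/ATP carrier isoform typical of heart and muscle, read 4675 and 4715 with shGFP, 4314 and 4430 with shScr, 3325 and 3182 with hairpin 65, and 3242 and 3326 with hairpin 66. All 4 knockdown arrays lay below all 4 controls, and SLC25A4 fell 1.39-fold, from 4534 ± 193 to 3269 ± 70.2 (SD, n = 4 in each arm; log2 SE 0.05, limma adjusted p = 1.48e-04). A second SLC25A4 probe set, with mean signals of 49.3 and 51.5, gave a log2 change of 0.06 (SE 0.10), and the mean of both probe sets a log2 change of -0.20 (adjusted p = 0.0217). SLC25A5, the ADP/ATP carrier isoform of proliferating cells, read 17710 and 17180 with shGFP, 17220 and 17366 with shScr, 14518 and 15017 with hairpin 65, and 14671 and 14684 with hairpin 66. The arms were again apart, with a decline of 1.18-fold (log2 change -0.24, SE 0.04, adjusted p = 0.00358). SLC25A31, an isoform known from testis, had signals of 12.5 to 17.4 on all arrays and a log2 change of -0.10 (SE 0.09, adjusted p = 0.520).

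SLC25A3, which imports the phosphate for ATP synthesis, read 15977 and 16139 with shGFP, 15545 and 15608 with shScr, 13635 and 13780 with hairpin 65, and 13471 and 13612 with hairpin 66. No knockdown array reached the lowest control, and SLC25A3 fell 1.16-fold (log2 SE 0.04, adjusted p = 0.00613). Of the calcium-regulated ATP-Mg/phosphate carriers, SLC25A23 fell 1.25-fold from 36.3 ± 3.68 to 28.9 ± 2.50 (adjusted p = 0.0268), signals for which no detection calls were given. In mean signal SLC25A23 stood at percentile 19.7 of all genes, and the 4 measured blood markers stood at 8.9 to 39.6. The SLC25A23 call ended without shGFP replicate 1 (adjusted p = 0.0611), shGFP replicate 2 (0.0701), shScr replicate 2 (0.0604), hairpin 65 replicate 2 (0.0663) or hairpin 66 replicate 2 (0.0533). SLC25A24, its relative, went from 1560 ± 196 to 1414 ± 90.2 (log2 change -0.14, adjusted p = 0.346); its shGFP arrays, at 1780 and 1666, stood above its shScr arrays, at 1438 and 1357.

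Among the carriers of dicarboxylates and citrate, members went both ways. SLC25A11, the oxoglutarate carrier, read 1149 and 1161 with shGFP, 1350 and 1369 with shScr, 989 and 1000 with hairpin 65, and 920 and 981 with hairpin 66. It fell 1.29-fold (1257 ± 119 to 973 ± 36.0, SD, n = 4 in each arm; log2 SE 0.07, adjusted p = 0.00523), with the shGFP arrays between shScr and the knockdown. Both of its probe sets gave a log2 change of -0.37. SLC25A1, which exports citrate for lipid synthesis, read 535 and 536 with shGFP, 552 and 579 with shScr, 636 and 711 with hairpin 65, and 587 and 650 with hairpin 66. Every knockdown array was above every control for SLC25A1, a rise of 1.17-fold (log2 SE 0.06, adjusted p = 0.0315). The SLC25A1 call ended without shGFP replicate 1 (adjusted p = 0.0774), shGFP replicate 2 (0.0760), shScr replicate 1 (0.0602), hairpin 65 replicate 1 (0.0635), hairpin 65 replicate 2 (0.0700) or hairpin 66 replicate 2 (0.0707). SLC25A10, the dicarboxylate carrier, had a log2 change of -0.26 (SE 0.09, adjusted p = 0.0589) and passed without shGFP replicate 1 (adjusted p = 0.0242). SLC25A21, a carrier of oxodicarboxylates such as oxoadipate, had signals of 16.8 to 31.6 and a log2 change of -0.19 (adjusted p = 0.492).

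Of the aspartate and glutamate carriers 2 of 3 fell, beside 10.7% of all genes. SLC25A12, the calcium-stimulated aspartate-glutamate carrier known from brain and muscle, read 879 and 950 with shGFP, 922 and 981 with shScr, 813 and 809 with hairpin 65, and 763 and 741 with hairpin 66. The arms did not overlap and SLC25A12 fell 1.19-fold (log2 SE 0.06, adjusted p = 0.00912); its second probe set gave a log2 change of -0.30. Its paralog SLC25A13, known from liver, read 2312 and 2191 with shGFP, 1713 and 1704 with shScr, 1737 and 1793 with hairpin 65, and 1874 and 1761 with hairpin 66. The shGFP arrays alone stood high, and the log2 change of -0.13 was not called (SE 0.10, adjusted p = 0.423). SLC25A22, a glutamate carrier, read 451 and 453 with shGFP, 439 and 397 with shScr, 396 and 370 with hairpin 65, and 355 and 374 with hairpin 66. Its lowest control and highest knockdown arrays nearly met, and it fell 1.16-fold (adjusted p = 0.0282). That call ended without shGFP replicate 1 (adjusted p = 0.0747), shGFP replicate 2 (0.0748), shScr replicate 1 (0.0616), hairpin 65 replicate 2 (0.0644), hairpin 66 replicate 1 (0.0772) or hairpin 66 replicate 2 (0.0597).

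SLC25A11, SLC25A12 and SLC25A13 work with cytosolic and mitochondrial aspartate aminotransferases and malate dehydrogenases in the malate-aspartate shuttle, which moves the electrons of cytosolic NADH into mitochondria. GOT1, the cytosolic aminotransferase, read 1426 and 1454 with shGFP, 1682 and 1692 with shScr, 810 and 849 with hairpin 65, and 737 and 759 with hairpin 66. It fell 1.98-fold with the arms far apart (log2 SE 0.08, adjusted p = 2.36e-05). GOT2, the mitochondrial aminotransferase, fell 1.33-fold, from 2763 ± 70.6 to 2079 ± 55.0 (SD, n = 4 in each arm; adjusted p = 2.35e-04). The cytosolic dehydrogenase MDH1 fell 1.19-fold (adjusted p = 0.0107), and the mitochondrial MDH2 had a log2 change of -0.13 (adjusted p = 0.0975) with arms that did not overlap. Of these 7 shuttle genes 5 fell, where 10.7% of all genes and 16.3% of those above the median signal did. GOT1 and GOT2 were named as the called genes of smallest p in their list, MDH1 and MDH2 after their values were seen. The count of 5 of 7 thus holds genes picked by their result and is no test of the shuttle. GPD2, the mitochondrial enzyme of the glycerol phosphate shuttle, rose 1.27-fold from 315 ± 33.8 to 398 ± 8.35 (adjusted p = 0.00885), and its cytosolic partner GPD1 had a log2 change of 0.06 (SE 0.10, adjusted p = 0.756). Malic enzyme ME1, which makes cytosolic NADPH from malate, rose 1.37-fold (adjusted p = 3.31e-04).

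**Figure D2:**
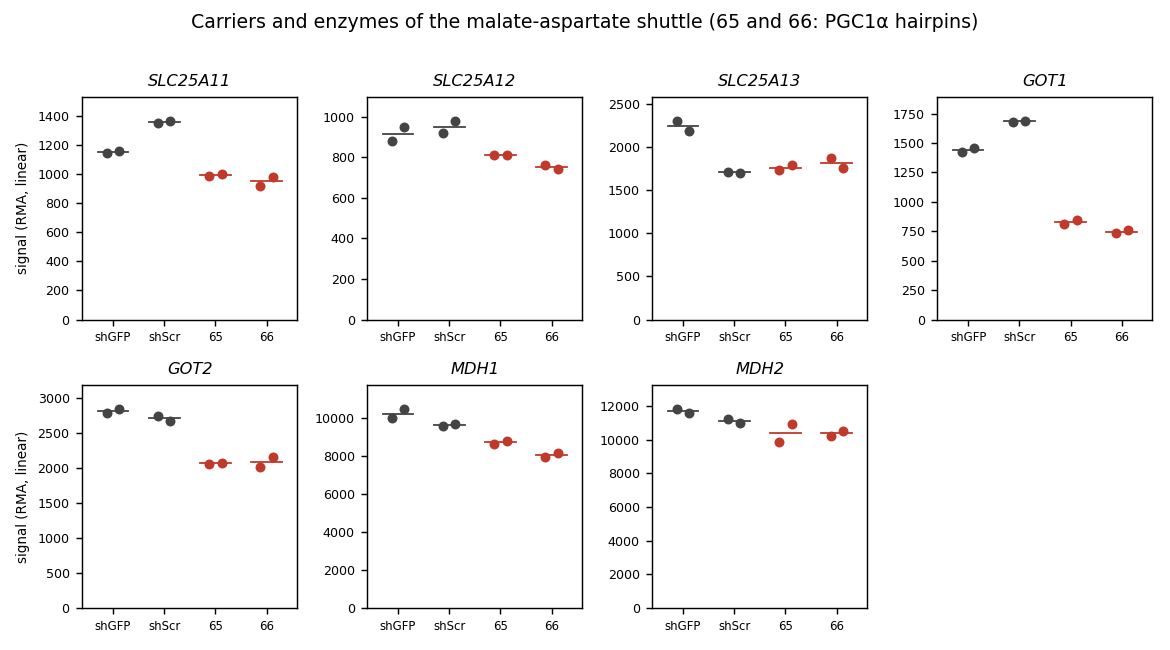
RMA signal on a linear axis from 0 of the carriers and enzymes of the malate-aspartate shuttle on each of the 8 arrays (points; dark grey for control hairpins, red for PGC1α hairpins), with a line at the mean of each hairpin. GOT1 shows the widest gap between the arms, and SLC25A13 is high with shGFP only.

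Of the carriers for other amino acids, SLC25A44, which imports branched-chain amino acids, fell 1.15-fold (2910 ± 158 to 2517 ± 59.5, SD, n = 4 in each arm; adjusted p = 0.0202). Its shScr arrays, 2965 and 3105, were the highest, shGFP gave 2756 and 2812, and the knockdown arrays lay between 2457 and 2579. The call ended without shScr replicate 1 (adjusted p = 0.0512), shScr replicate 2 (0.0516) or hairpin 66 replicate 2 (0.0536). SLC25A15, an ornithine carrier of the urea cycle, had a log2 change of -0.11 (adjusted p = 0.245), and SLC25A38, the glycine carrier for heme synthesis, -0.03 (adjusted p = 0.865).

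SLC25A20, which exchanges acylcarnitines for carnitine and so admits long-chain fatty acids to oxidation, read 798 and 782 with shGFP, 771 and 735 with shScr, 659 and 642 with hairpin 65, and 712 and 682 with hairpin 66. Hairpin 65 was the lower of the knockdown hairpins, and SLC25A20 fell 1.15-fold (log2 SE 0.05, adjusted p = 0.0249). The call ended without shGFP replicate 1 (adjusted p = 0.0669), shGFP replicate 2 (0.0616), shScr replicate 1 (0.0528), hairpin 65 replicate 1 (0.0697) or hairpin 65 replicate 2 (0.0633). CPT1A, the outer-membrane enzyme that makes long-chain acylcarnitines, fell 1.22-fold (adjusted p = 0.0108), while CPT2, which turns them back into acyl-CoA, had a log2 change of -0.06 (adjusted p = 0.620).

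SLC25A40, a carrier linked to mitochondrial glutathione import, fell 1.17-fold from 201 ± 16.1 to 171 ± 8.31 (SD, n = 4 in each arm; adjusted p = 0.0346), with shGFP replicate 1 highest at 224. The call ended without shGFP replicate 1 (adjusted p = 0.0753), shGFP replicate 2 (0.0682), hairpin 65 replicate 1 (0.0833), hairpin 66 replicate 1 (0.0889) or hairpin 66 replicate 2 (0.0810), and with the replicate number as a block (0.0537).

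Of the iron carriers, the mitoferrins, 1 of 2 rose, beside 11.6% of all genes, and the other was not called. SLC25A37 (mitoferrin-1), the iron importer of developing red cells, read 264 and 284 with shGFP, 269 and 263 with shScr, 455 and 432 with hairpin 65, and 439 and 438 with hairpin 66. The 4 knockdown arrays formed a tight group far above the controls, and SLC25A37 rose 1.63-fold, from 270 ± 9.94 to 441 ± 9.76 (log2 SE 0.05, adjusted p = 1.34e-05). Its other probe sets rose as well, by log2 changes of 0.58 and 0.67. SLC25A28 (mitoferrin-2), its widely expressed paralog, had signals of 197 to 233 in the control and 174 to 206 in the knockdown arm, a log2 change of -0.22 (SE 0.07, adjusted p = 0.0585). It passed without shGFP replicate 1 (adjusted p = 0.0236) and without hairpin 65 replicate 1 (0.0445), in both cases as lower.

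SLC25A36, a carrier of pyrimidine nucleotides, read 2542 and 2561 with shGFP, 2414 and 2422 with shScr, 3129 and 2844 with hairpin 65, and 2699 and 2838 with hairpin 66. Knockdown arrays were all above controls, and SLC25A36 rose 1.16-fold (log2 SE 0.06, adjusted p = 0.0263). Its other probe sets gave log2 changes of 0.20 and 0.22, and neither passed (limma adjusted p over all probe sets 0.0811 and 0.0516). SLC25A36 was not called in the fit without s_at and x_at probe sets. The call ended without shScr replicate 1 (adjusted p = 0.0652), shScr replicate 2 (0.0624), hairpin 65 replicate 1 (0.0695), hairpin 65 replicate 2 (0.0512) or hairpin 66 replicate 2 (0.0518). None of the 4 cofactor carriers measured was called, beside 22.2% of all genes called either way. Log2 changes were -0.11 for SLC25A16 and -0.08 for SLC25A42, both linked to coenzyme A, -0.06 for the peroxisomal carrier SLC25A17 and 0.19 for SLC25A32, linked to folate and FAD (adjusted p from 0.120 to 0.611). SLC25A46, an outer-membrane member tied to mitochondrial shape, had arms that did not overlap but a log2 change of only -0.10 (SE 0.04, adjusted p = 0.164).

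Of 5 uncoupling proteins and close relatives 1 rose, UCP2, beside 11.6% of all genes. UCP2, a widely expressed member that is thought to limit oxidant production, read 331 and 401 with shGFP, 561 and 537 with shScr, 775 and 837 with hairpin 65, and 753 and 775 with hairpin 66. The order was shGFP, then shScr, then both knockdown hairpins, and UCP2 rose 1.75-fold, from 457 ± 110 to 785 ± 36.3 (SD, n = 4 in each arm; log2 change 0.81, SE 0.15, adjusted p = 0.00401). Against shScr alone the log2 change was 0.52 (adjusted p = 0.00130), and against shGFP alone 1.11 (adjusted p = 6.56e-05). A second UCP2 probe set, with mean signals of 62.2 and 60.2, gave -0.05 (SE 0.09), and the mean of both probe sets gave 0.38 (adjusted p = 0.0171).

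UCP1, the brown fat uncoupler, had signals of 22.3 to 28.0 on all arrays (log2 change 0.05, adjusted p = 0.746). UCP3, known from skeletal muscle, lay between 59.3 and 81.2 (log2 change -0.12, adjusted p = 0.382). SLC25A14 and SLC25A30, relatives of the uncoupling proteins, had log2 changes of -0.04 and 0.03. UCP2 was thus the 1 member of this group whose arms did not overlap, where 13.9% of all genes had arms apart and higher.

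**Figure D3:**
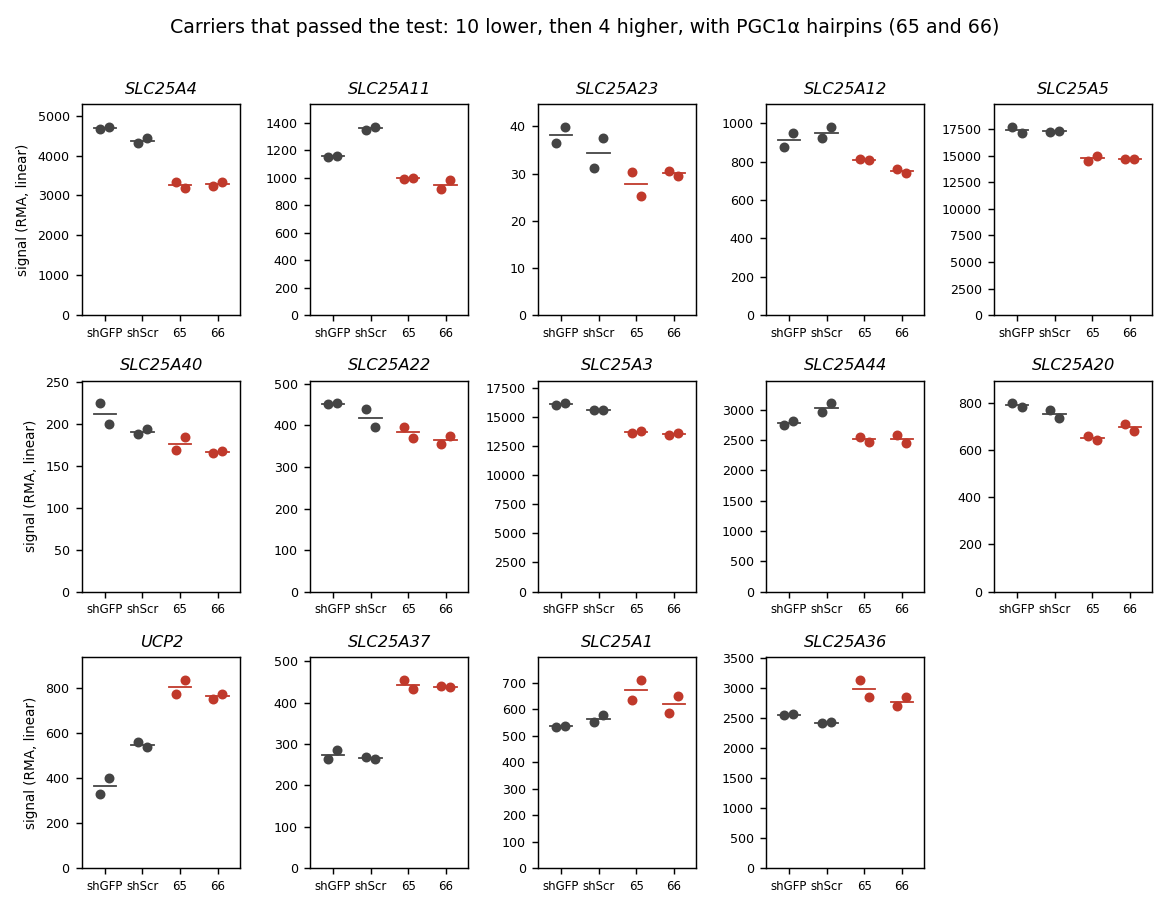
RMA signal on a linear axis from 0 on each of the 8 arrays for the 14 called carriers, the 10 that fell in order of their decline and then the 4 that rose (points; dark grey for shGFP and shScr, red for hairpins 65 and 66), with a line at the mean of each hairpin. SLC25A4 and SLC25A37 show a wide gap between tight arms, while the gaps of SLC25A22 and SLC25A40 are narrow.

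Each PGC1α hairpin was then set against the same 4 control arrays, so that these comparisons share their controls. With hairpin 65, 9 carriers fell and 4 rose, beside 10.4% and 13% of all genes; with hairpin 66, 9 fell and 2 rose, beside 10.9% and 11.2%. SLC25A3, SLC25A4, SLC25A5, SLC25A10, SLC25A11, SLC25A12 and SLC25A44, 7 in all, fell with both, and SLC25A37 and UCP2 rose with both. Of all genes 8.09% fell and 9.78% rose with both. SLC25A10 was not called in the test of the 2 arms (adjusted p = 0.0589), where its arms overlapped. The fit by hairpin takes its spread within hairpins, so the gap between shGFP and shScr, -0.28 in log2 for SLC25A10, is not part of it. SLC25A37 had log2 changes of 0.71 with hairpin 65 (adjusted p = 1.41e-04) and 0.70 with hairpin 66 (adjusted p = 1.53e-04), and SLC25A4 -0.48 (5.24e-04) and -0.46 (6.12e-04). SLC25A20 and SLC25A23 fell and SLC25A1 and SLC25A36 rose with hairpin 65, with adjusted p from 0.0882 to 0.139 for hairpin 66. SLC25A22 and SLC25A40 fell with hairpin 66, with adjusted p of 0.0788 and 0.0825 for hairpin 65.

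A direct test between hairpins 65 and 66 called 0 of the 31 carriers, and 0 of all genes either way (0%), with limma. At an unadjusted p under 0.05 it gave 0 carriers and 849 genes in all. Differences of the carriers ran from -0.25 for SLC25A21 to 0.18 for SLC25A42, so calls made with a single hairpin are not shown to differ between hairpins. The count that fell with hairpin 65 was 5 without shGFP replicate 2, shScr replicate 1 or hairpin 65 replicate 1, and 4 without shScr replicate 2 or hairpin 65 replicate 2. For hairpin 66 it was 5 without shScr replicate 1, 3 without hairpin 66 replicate 1 and 2 without hairpin 66 replicate 2. Shares of all genes were not taken for these fits.

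The control hairpins differed from each other in 4 carriers, with 2 lower and 2 higher in shGFP than in shScr, where 3.45% and 4.4% of all genes were called. SLC25A13 was higher in shGFP by a log2 difference of 0.40 (SE 0.06, adjusted p = 0.00983), and SLC25A21 by 0.60 (SE 0.13, adjusted p = 0.0321) at signals of 26.6 and 31.6 against 19.4 and 18.8. UCP2 was lower in shGFP, by a log2 difference of -0.59 (SE 0.10, adjusted p = 0.0113). SLC25A38 was lower too, at 526 and 542 against 663 and 642 (log2 difference -0.29, SE 0.06, adjusted p = 0.0233), and its knockdown arrays, from 569 to 588, lay between the controls.

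Calls also differed with the control used. Against shGFP alone 13 carriers fell and 4 rose (12.7% and 13.2% of all genes). Against shScr alone 8 fell and 3 rose (8.35% and 10.8%), of which 6 and 3 were among the calls against both controls. SLC25A20 (adjusted p = 0.125), SLC25A22 (0.163), SLC25A23 (0.158), SLC25A40 (0.145) and SLC25A1 (0.159) lost their call against shScr alone, and SLC25A44 (0.0984) and SLC25A36 (0.122) against shGFP alone. None of these carriers was called between shGFP and shScr (limma adjusted p from 0.280 to 0.633). Each such fit held 2 control arrays, so the control used and the lower precision cannot be told apart. Against shGFP alone SLC25A13 fell (log2 change -0.33, adjusted p = 0.00525), and against shScr alone it gave 0.07 (adjusted p = 0.484). SLC25A24 (-0.29), SLC25A21 (-0.49) and SLC25A15 (-0.20) fell and SLC25A32 rose (0.31) against shGFP alone, and none of these 4 passed against shScr alone. SLC25A10 (-0.40) and SLC25A28 (-0.28) fell against shScr alone. The differences between the controls rested on few arrays: that of SLC25A13 was not called without shGFP replicate 1 (adjusted p = 0.0734), shScr replicate 1 (0.0647) or shScr replicate 2 (0.0735), and that of UCP2 without shScr replicate 1 (0.0716) or shScr replicate 2 (0.0558). SLC25A38 lost its call without shGFP replicate 1 (0.127), shGFP replicate 2 (0.0905), shScr replicate 1 (0.148) or shScr replicate 2 (0.104). SLC25A21 lost it without shGFP replicate 1 (0.0557), shGFP replicate 2 (0.168), shScr replicate 1 (0.117), shScr replicate 2 (0.144) or either hairpin 66 array (0.0570).

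**Figure D4:**
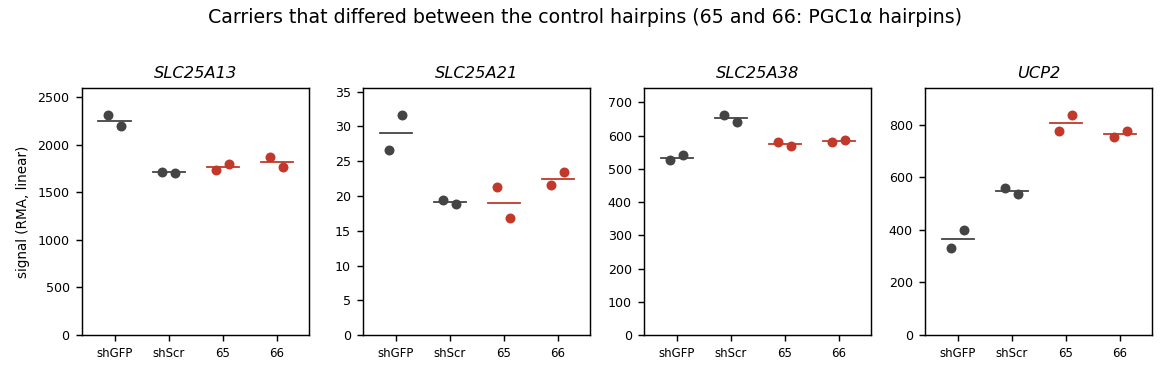
RMA signal on a linear axis from 0 on each of the 8 arrays for the 4 carriers that differed between shGFP and shScr (points; dark grey for controls, red for hairpins 65 and 66), with a line at the mean of each hairpin. SLC25A13 and SLC25A21 are highest with shGFP, SLC25A38 is lowest with shGFP, and UCP2 rises from shGFP to shScr to the PGC1α hairpins.

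Other genes of mitochondrial transport, in 4 lists with 35 of 44 genes measured, gave 15 that fell and 2 that rose, with a median log2 change of -0.12. Over all genes the shares were 10.7% and 11.6%, and over genes above the median signal 16.3% and 17.3%. The median signal of the 35 genes was 2134, that of all genes 230 and that of genes above the median 922.8, so neither share is matched for signal. The 4 lists were chosen with earlier results of these data known, so their counts are no test. Of 6 genes for outer-membrane channels and carrier relatives, 3 fell, among them the porins VDAC1 (10378 ± 451 to 8688 ± 238, 1.19-fold lower, adjusted p = 0.00585) and VDAC2 (1.13-fold, adjusted p = 0.0253), through which metabolites reach the carriers. Of 9 other inner-membrane transporters, 4 fell. NNT, which uses the proton gradient to make NADPH, fell 1.56-fold (1337 ± 68.4 to 860.5 ± 69.7, adjusted p = 1.60e-04), and MPC1, a subunit of the pyruvate carrier, 1.28-fold (adjusted p = 8.12e-04), while its partner MPC2 had a log2 change of -0.12 (adjusted p = 0.107).

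Carriers are brought to the inner membrane by small TIM chaperones and inserted by the TIM22 complex. Of 9 genes of that route measured, 4 fell and 0 rose, where 16.3% and 17.3% of all genes above the median signal did, including the chaperone TIMM9 (739 ± 18.5 to 612 ± 13.1, 1.21-fold lower, adjusted p = 0.00236) and the channel subunit TIMM22 (490 ± 28.5 to 391 ± 24.1, 1.25-fold lower, adjusted p = 0.00554). Against the same shares, 4 of 11 enzymes of the shuttles that carriers serve fell and 2 rose: GOT1, GOT2, MDH1 and CPT1A fell, and ME1 and GPD2 rose.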

How the data were processed

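Total RNA of 8 A375P samples was hybridised to 1-colour Affymetrix arrays, per the labels. The deposited intensity values, 22277 probe sets on a linear scale, were made by the authors with RMA (version not stated), per the submitters' processing notes. Precision is limited by how few arrays there are. The log2 was taken and, for each of 11963 genes with a single symbol in the array's probe table, the probe set of highest mean was kept, without a filter. Probe sets numbered 19070 with 1 symbol, 1043 with several and 2164 with none. Arms were tested as 2 groups with limma (version 3.58.1 under R 4.3.3, 6 residual degrees of freedom), and single hairpins as 4 groups (4 degrees of freedom), with p-values adjusted over all genes. Both fits were run on simulated data with noise independent between arrays. That check does not cover the 2-group fit where hairpins of an arm differ. Nothing says that the 2 arrays of a hairpin are separate cultures, so p-values measure the spread between these samples, which may be technical.

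Members, lists and tests were chosen with earlier results of these data known. Named are all carriers, PPARGC1A, and the 2 called genes of smallest p in each of 4 transport lists; MDH1, MDH2, ME1, GPD1, GPD2, CPT1A, CPT2, MPC2 and the marker genes are named beyond that rule, after their values were seen. Promoters came from RefSeq (GRCh38.p14). Alternatives were the mean of probe sets, a signal filter, quantile and cyclic loess normalization, another variance model, probe set type, a replicate block, hairpin as a random block, averaged arrays, the ACTB covariate, and each array or hairpin left out.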

Additional observations from a re-analysis of the deposited data

Results flagged for a closer look

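In 62 groups of 4 arrays, 31 carriers in each arm, 1 array stood apart from its group: SLC25A16 read 659 with shGFP replicate 2, where the nearest other control read 587, a gap of 0.870 of the range of that arm. Chance gives about 1 such flag in 20 groups.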

How the results depend on the processing

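Of the 14 carriers called, all kept their direction under the alternatives in which they were tested. SLC25A4 also kept its call in all 22 alternatives, and SLC25A37 in the 21 that included it. The fit without s_at and x_at probe sets did not include SLC25A37. Leaving out 1 array at a time gave 6 to 9 carriers lower and 2 to 4 higher, with a carrier median of -0.15 to -0.10. Over all genes 8.24% to 9.99% were then lower and 9.35% to 10.9% higher. The ranges were 4 to 6 lower and 3 to 4 higher for hairpin 65, 2 to 9 lower for hairpin 66, and 0 to 2 lower and 0 to 2 higher for shGFP against shScr. Between hairpins 65 and 66 the count stayed at 0. With hairpin as a random block 6 carriers fell and 2 rose (8.14% and 9.43% of all genes). Averaged arrays gave 1 and 1 (3.01% and 4.33%), as did the ACTB covariate (2.01% and 2.41%). Without hairpin 65, 5 fell and 1 rose (5.64% and 5.95% of all genes), and without hairpin 66, 3 fell (5.21%). The median was -0.15 without shGFP and -0.14 without shScr. Without s_at and x_at probe sets 25 carriers were tested and 1 rose (9.75% of all genes), 2 with hairpin 65 and 1 with hairpin 66. SLC25A1 and SLC25A37 have only such probe sets and were not in that fit. SLC25A36 was read from another probe set there and was not called. With the signal filter 4 rose with hairpin 66 and 5 were lower in shGFP; the trend and robust variance gave 4 and 5, and 4 higher in shGFP. The mean of probe sets left 1 carrier lower in shGFP and 1 transport gene higher with the PGC1α hairpins. Several of these settings held fewer arrays or genes, and the cause of the other shifts was not tested. For the single-hairpin and shGFP counts of this section, shares of all genes were not taken.

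Replicate numbers did not pair the arrays: the differences of replicate 1 from 2 correlated by -0.107 to 0.0426 between hairpins. With the replicate block 9 carriers fell and 4 rose (9.75% and 10.6% of all genes), and 1 was higher in shGFP. SLC25A40 lost its call.

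Directions turned in carriers that were not called (log2 changes). Without shGFP, SLC25A13 gave 0.067, SLC25A21 0.11 and SLC25A24 0.015; without shScr, SLC25A30 gave -0.052, SLC25A31 0.023 and SLC25A38 0.12. Without hairpin 66, SLC25A30 gave -0.080 and SLC25A42 0.0100; with the ACTB covariate, SLC25A42 gave 0.046 and UCP1 -0.047; with the mean of probe sets, SLC25A30 gave -0.053. Over single arrays left out, SLC25A30 ranged from -0.062 to 0.087, SLC25A31 from -0.14 to 0.00055, SLC25A38 from -0.082 to 0.030 and UCP1 from -0.0022 to 0.11.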
